A study of Mus musculus with 2 samples.

Results

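The log2 ratios of 495 genes of mouse chromosome 17 outside the major histocompatibility complex (MHC) were followed from the centromeric to the telomeric end in 2 melanoma lines. The members were all genes whose array probe lies on chromosome 17 of the mouse assembly mm9, left out where the probe starts between 33.5 and 38 Mb (the MHC), each read through its brightest probe and kept where that probe was well above background in 1 line on both arrays. These 495 were detected out of 1016 such genes on the array (1451 probes), and the whole array held 12474 detected genes of 27568. The chromosome was chosen by its low median log2 ratio in these same data, so its median and the counts around it are given as a description, with no test.

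The lines were B16F1-GFP-M, the maternal line of GFP-marked B16F1 cells (a melanoma line of C57BL6 mice), and B16F1-GFP-D, named dormant because its founder stayed silent in a mouse for 1 year. B16F1-GFP-D grew from 1 colony of GFP-positive cells sorted out of the pooled organs of tumour-free control and immunised mice, so it is a single clone. Sorting had left some GFP-negative host cells in the starting culture, and for this reason the authors cloned the GFP-positive cells after expansion. The authors describe both lines as clonal. Both lines carry GFP and were grown in the same serum-containing medium without treatment. RNA of both lines was hybridised together on 2 Agilent 2-colour arrays of 1 slide with exchanged dyes (array 1 with B16F1-GFP-D in Cy3, array 2 with B16F1-GFP-D in Cy5). No second culture or extract is named, so the arrays were taken as 1 replicate per line; the SD given with each value is the spread between the 2 arrays, it is technical, and no p-value can be had. In RNA of whole cultures, fewer cells of a type and less RNA per cell cannot be told apart.

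Mouse chromosome 17 carries the t-complex and the imprinted Igf2r cluster near its centromere, large clusters of zinc finger genes, the MHC in its middle and the mismatch repair gene Msh6 near its far end. The MHC codes for the proteins that show peptides to T cells. The zinc finger genes of the mouse lie in clusters that arose by repeated duplication, and many of their products silence transposons. The remaining genes of the chromosome serve unrelated functions of every cell, among them ribosomes, mitochondria, mitosis and DNA repair. DNA copy number was not measured here.

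The melanocyte markers (Mitf, Tyr, Tyrp1, Dct, Pmel, Mlana, Sox10, Slc45a2, Oca2 and Gpr143) were above background in both lines in 10 of 10 cases. Their median log2 ratio was -0.14, and none was past 2-fold on both arrays. By the mean of both arrays they ran from Mitf (-0.95 and -0.89) to Gpr143 (0.18 and 0.55). Of the fibroblast markers 2 of 7 were detected (Col1a1 and Col1a2), of the leukocyte markers 3 of 7 (Cd3e, Cd68 and Lyz2) and of the endothelial markers 0 of 4. Col1a1, Cd3e and Cd68 passed in B16F1-GFP-D alone, so 2 fibroblast and 3 leukocyte markers passed there against 1 and 1 in B16F1-GFP-M. Their log2 ratios were 0.38 and 0.41, -0.06 and 0.05, and 0.51 and 0.36 on the 2 arrays, all at dim signals. Ptprc, Pecam1 and Pdgfra were, among others, not well above background in either line. The summed intensity of the leukocyte list was 781 and 760 in B16F1-GFP-D against 801 and 755 in B16F1-GFP-M on arrays 1 and 2, that of the fibroblast list 571 and 567 against 587 and 567, and that of the endothelial list 299 and 281 against 292 and 283. These sums include the markers that were not detected. The part of other cells in the results was not tested.

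The promoters printed here belong to members past 2-fold on both arrays. Shown are Uhrf1, the gene with the largest difference, and 7 genes picked because a searched motif (an E2F site or an E-box) lies before their start, so they are not typical of the called genes. Chaf1a, higher in the dormant line, also has an E-box before its start but is not shown. The printed promoters come from RefSeq (GRCm38.p6), which was kept apart from the mm9 probe positions, and each runs 5′ to 3′ over the 250 bases before the transcript start. Capitals mark 3 searched motifs, on either strand: the E2F site (TTTCCCGC, TTTGGCGC or TTTCGCGC), the CCAAT box (CCAAT) and the E-box (CACGTG). E2F proteins switch on genes of the S phase, NF-Y binds the CCAAT box, and the E-box is read by factors of the MYC, MITF and TFEB families. The E-box reads the same on both strands, and a motif that runs past the start is left in lower case.
The promoters of 4 genes higher in the dormant line lie, in the order shown, at chr17:56303087-56303336 on the plus strand, chr17:24470176-24470425 on the plus strand, chr17:12916092-12916341 on the minus strand and chr17:56162241-56162490 on the plus strand.
Uhrf1: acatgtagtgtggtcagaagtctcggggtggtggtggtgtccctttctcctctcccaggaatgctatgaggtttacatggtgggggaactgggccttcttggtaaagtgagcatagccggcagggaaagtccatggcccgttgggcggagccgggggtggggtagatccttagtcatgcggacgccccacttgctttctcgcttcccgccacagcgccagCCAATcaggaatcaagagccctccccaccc
Pgp: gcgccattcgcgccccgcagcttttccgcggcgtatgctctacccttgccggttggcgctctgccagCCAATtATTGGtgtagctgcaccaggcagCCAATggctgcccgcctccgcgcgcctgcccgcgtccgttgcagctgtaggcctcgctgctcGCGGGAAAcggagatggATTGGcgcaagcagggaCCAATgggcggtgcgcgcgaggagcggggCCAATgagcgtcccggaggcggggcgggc
Mrpl18: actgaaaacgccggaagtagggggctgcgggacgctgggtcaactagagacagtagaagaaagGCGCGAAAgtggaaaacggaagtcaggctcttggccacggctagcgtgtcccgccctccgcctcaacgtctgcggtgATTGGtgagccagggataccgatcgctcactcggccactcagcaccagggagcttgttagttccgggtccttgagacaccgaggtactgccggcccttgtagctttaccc
Tnfaip8l1: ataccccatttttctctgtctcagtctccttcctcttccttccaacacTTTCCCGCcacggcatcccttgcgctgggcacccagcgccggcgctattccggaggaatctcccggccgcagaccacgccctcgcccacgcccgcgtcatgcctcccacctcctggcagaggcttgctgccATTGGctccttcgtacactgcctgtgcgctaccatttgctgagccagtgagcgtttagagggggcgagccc
The promoters of 4 genes lower in the dormant line lie, in the order shown, at chr17:24163734-24163983 on the minus strand, chr17:56626904-56627153 on the minus strand, chr17:56075027-56075276 on the minus strand and chr17:46772385-46772634 on the plus strand.
Amdhd2: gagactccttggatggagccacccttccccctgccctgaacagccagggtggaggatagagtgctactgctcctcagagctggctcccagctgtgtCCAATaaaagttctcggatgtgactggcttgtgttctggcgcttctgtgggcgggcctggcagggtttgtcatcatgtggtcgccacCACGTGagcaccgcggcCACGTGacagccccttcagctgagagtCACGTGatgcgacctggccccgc
Lonp1: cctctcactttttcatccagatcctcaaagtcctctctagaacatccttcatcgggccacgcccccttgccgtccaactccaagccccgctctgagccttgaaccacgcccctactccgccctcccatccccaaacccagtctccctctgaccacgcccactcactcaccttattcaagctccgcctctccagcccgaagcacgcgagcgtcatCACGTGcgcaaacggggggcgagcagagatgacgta
Ubxn6: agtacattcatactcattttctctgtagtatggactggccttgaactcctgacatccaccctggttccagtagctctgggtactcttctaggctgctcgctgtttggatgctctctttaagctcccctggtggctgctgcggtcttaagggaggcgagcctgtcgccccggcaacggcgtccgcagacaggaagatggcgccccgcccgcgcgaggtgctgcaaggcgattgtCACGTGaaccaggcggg
2310039H08Rik: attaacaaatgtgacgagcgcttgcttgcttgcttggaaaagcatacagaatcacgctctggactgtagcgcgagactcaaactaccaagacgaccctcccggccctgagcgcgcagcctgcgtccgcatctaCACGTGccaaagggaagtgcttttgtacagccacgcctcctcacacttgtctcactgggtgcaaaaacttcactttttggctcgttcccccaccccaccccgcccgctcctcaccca

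Counted over 300 bases (250 before to 50 after the start, the first listed promoter of each gene), an E2F site was found in 4 of the 10 promoters of higher genes that RefSeq holds (Pgp, Mrpl18, Tnfaip8l1 and Msh6) and in 0 of 9 of lower genes. It was found in 4.47% of the 358 promoters matched to members and in 1.91% of all 27025 promoters. An E-box was found in 1 of 10 promoters of higher genes (Chaf1a) and in 4 of 9 of lower genes (Ubxn6, Lonp1, Amdhd2 and 2310039H08Rik), against 14.5% of the members and 7.24% of all promoters. A CCAAT box was found in 8 of 10 and 4 of 9, against 43.0% of the members and 37.9% of all promoters. The core of the amino acid response element (TGATGCAA or TGATGAAA) was found in none of these 19 promoters, in 0.279% of the members and in 1.92% of all promoters. The median GC content was 61.0% in the members' promoters and 52.7% in all promoters, and the part of this difference in the shares above was not tested. The match of Msh6 lies after the start and is not printed.

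RNA of chromosome 17 was lower in the dormant line by a small amount spread over many genes. The median log2 ratio (dormant over maternal line) over the 495 members was -0.21 on array 1 and -0.14 on array 2, and -0.19 ± 0.05 for the mean of both arrays. The 11194 detected genes of the other 18 autosomes had medians of -0.03 and 0.02, and -0.0055 for the mean of both arrays. The members therefore lay 0.18 below the other autosomes on the log2 scale (-0.18 on array 1 and -0.16 on array 2), a level 11.9% lower.

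The median of chromosome 17 was the lowest of the 19 autosomes and the X chromosome, but chromosomes 13 and 3 stood beside it. Their medians were -0.17 and -0.16, and the next was chromosome 18 at -0.05. The difference between chromosomes 17 and 13 was -0.0096 on array 1 and -0.00041 on array 2 (SD 0.0065), and -0.021 for the mean of both arrays. The order of these 3 chromosomes was not resolved, because it changed with the processing. Chromosome 17 ranked 3 under median centring without loess (-0.07, against -0.09 for both others). It also ranked 3 with the second brightest probe of each gene (-0.10, against -0.13 for chromosome 13 and -0.12 for chromosome 3). The X chromosome had the highest median, 0.07.

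**Figure D1:**
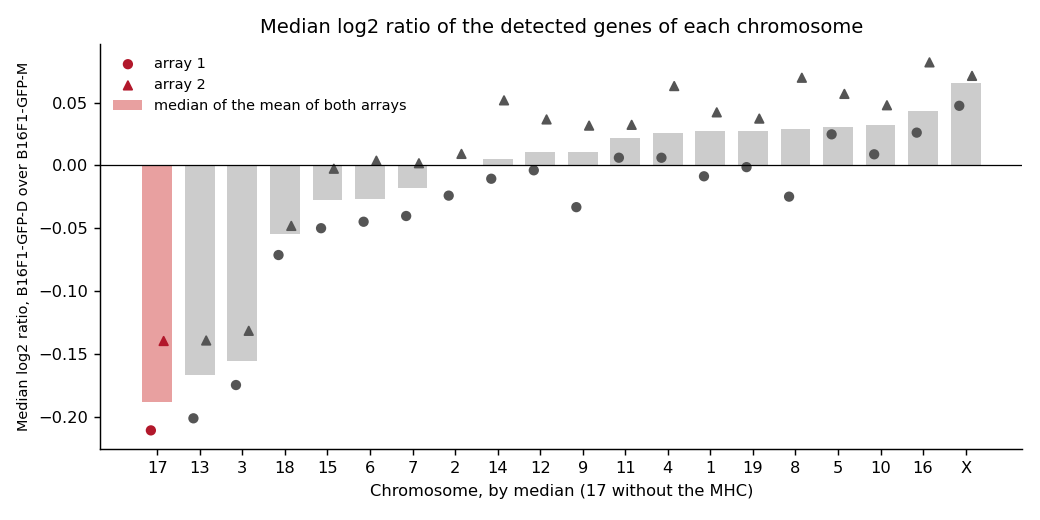
Median log2 ratio (dormant over maternal line) over the detected genes of each chromosome (vertical axis), ordered from low to high, with chromosome 17 (without the MHC) in red. Bars give the median of the mean of both arrays, circles array 1 and triangles array 2. Chromosomes 17, 13 and 3 sit between -0.19 and -0.16, and chromosome 18 follows at -0.05.

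On both arrays 282 members were lower in the dormant line, which is 57.0% of 495, 147 were higher (29.7%) and 66 had unlike signs. Over all detected genes 42.7% were lower and 41.0% higher on both arrays, and over the other autosomes 42.4% and 41.3%. Chromosome 13 had 59.3% and chromosome 3 had 56.8% of its genes lower on both arrays. The 2 arrays ranked the members alike (Pearson's r 0.909 and Spearman's rho 0.890 across 495 genes, which are not replicates), and the pooled SD between the arrays was 0.15 for a single gene, close to the size of the median shift.

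The shift was not carried by the ends of the distribution. At the 25th, 50th and 75th percentile the members lay 0.18, 0.18 and 0.15 below the other autosomes, and at the 5th and 95th percentile 0.12 and 0.22 below. Dim genes moved least: over 4 equal bins of all detected genes from the dimmest to the brightest the members' medians were -0.08, -0.16, -0.30 and -0.23, while those of the other autosomes stayed between -0.02 and 0.0060. The offset of 50 added to every intensity draws the ratios of dim probes towards 0, and with an offset of 0 the members' median was -0.25. The bins were not read with an offset of 0, so the part of the offset in their order was not tested. The 412 members that RefSeq lists as protein-coding on chromosome 17 had a median of -0.22, and the 83 members that are non-coding, unmatched or listed elsewhere had -0.10.

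A second detected probe was held by 168 members, and its value was nearer to 0. Their median was -0.10 with the second brightest probe and -0.23 with the brightest, with the same sign in 80.4% of genes. On the other autosomes 4467 such genes had 0.02 with the second and -0.05 with the brightest probe, so the gap between chromosome 17 and the others was -0.12 with the second probe.

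**Figure D2:**
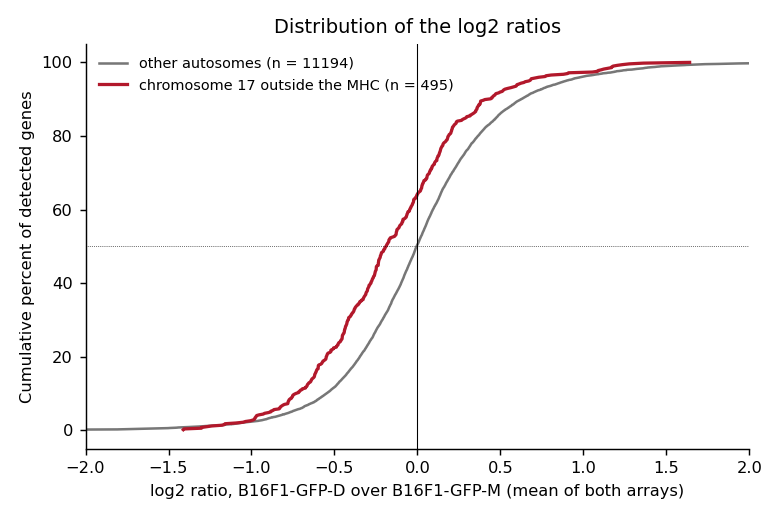
Cumulative percent of detected genes (vertical axis) by log2 ratio (dormant over maternal line), mean of both arrays (horizontal axis, drawn from -2 to 2), for the 495 members in red and the 11194 genes of the other autosomes in grey. The red curve lies to the left over its whole middle, by 0.18 at the median.

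Most stretches of the chromosome were below 0. Among the 471 running windows of 25 neighbouring members, 91.7% had a median below 0, the highest share of the 19 autosomes; chromosomes 13, 3 and 18 followed with 87.2%, 80.4% and 78.2%, and chromosome 8 had the lowest share, 32.6%. Windows share genes and are no independent counts. The 260 members on the centromeric side of the MHC had a median of -0.23 (-0.26 and -0.19 on the 2 arrays) with 61.9% lower on both, and the 235 on the telomeric side -0.12 (-0.14 and -0.12) with 51.5%. The 115 detected genes of the MHC itself had -0.11.

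In steps of 10 Mb the medians ran from -0.33 between 30 and 40 Mb (40 members, the MHC left out) to -0.05 between 50 and 60 Mb (50 members), where the last step, with 3 members, is left aside. The fullest step, 20 to 30 Mb with 158 members, had -0.23. The lowest window, -0.48, began at 18613411 and ended at 23812805 with Tnfrsf12a, and 21 of its 25 genes were below 0. The highest window, 0.08, ran from Kat2b at 53811093 to 9630010G10Rik at 56570328, and 12 of its 25 genes were below 0. Chaf1a, Tnfaip8l1 and Uhrf1, past 2-fold higher on both arrays, and Ubxn6, past 2-fold lower, lie in this highest window. The window centred on Uhrf1 had the same median.

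Next neighbours had the same sign about as often as the shares of signs alone give. Of 494 neighbouring pairs 55.3% had the same sign, and the shares of positive and negative genes alone give 53.9%. The correlation between next neighbours was 0.05, a weak one. One pair of neighbours passed 2-fold in opposite directions: Chaf1a on the plus strand and Ubxn6 on the minus strand, whose probes start 996 bases apart at 56206969 and 56207965, had 1.28 and -1.09.

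**Figure D3:**
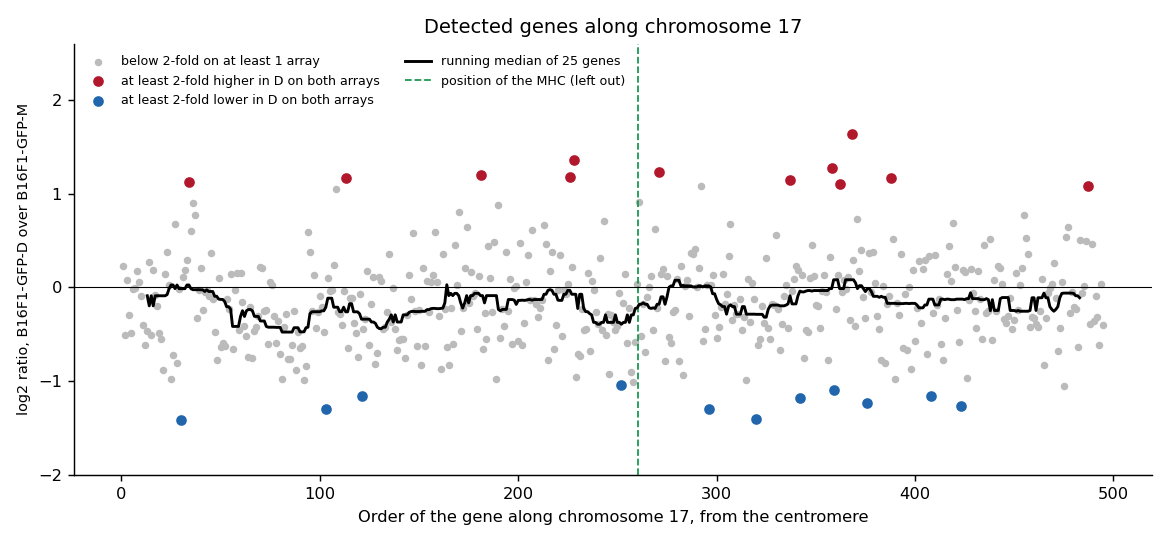
Log2 ratio (dormant line, D, over maternal line, M), mean of both arrays (vertical axis), of the 495 members in their order along chromosome 17 (horizontal axis). Red points are the 12 genes at least 2-fold higher and blue points the 11 genes at least 2-fold lower on both arrays, the black line is the running median of 25 genes, and the dashed line marks where the MHC was left out. The running median stays between -0.48 and 0.08.

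A single gene was called where its ratio was at least 2-fold in one direction on each array. So called were 23 members (4.65% of 495), against 5.05% of all detected genes and 5.13% of the other autosomes. Higher in the dormant line were 12 (2.42%), where 3.11% of all detected genes and 3.15% of the other autosomes were higher. Lower were 11 (2.22%), where 1.94% and 1.97% were lower. The share of called members was thus near the background. With the scanner software's own log ratios 53 of 495 were called, 21 higher and 32 lower, where 10.9% of the other autosomes were called. This split by direction was not compared with the other autosomes.

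The called genes are given by role, a grouping made after their values were seen. On the higher side stood 3 genes of newly copied DNA. Uhrf1, which reads newly copied DNA and brings the maintenance methyltransferase to it, had log2 ratios of 1.67 on array 1 and 1.61 on array 2, a 3.12-fold difference, the largest of the 12. Chaf1a, the large subunit of chromatin assembly factor 1, which sets histones on new DNA, had 1.22 and 1.33. Msh6, which finds mismatches in newly copied DNA, had 1.13 and 1.05. All 3 were past 2-fold in both dye orders, as the rule of calling requires.
Others bear names of microtubule genes. Kifc5b, a kinesin nearly identical to Kifc1, had 1.24 and 1.17. Tubb4a, a beta-tubulin, had 1.10 and 1.24. Probes of such close relatives may share target RNA, so the gene behind either value is uncertain.

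The other higher genes had unlike roles. Pgp, a phosphatase that clears side products of glycolysis, had 1.14 and 1.20. Mrpl18, a protein of the large mitochondrial ribosomal subunit, had 1.05 and 1.19. Tnfaip8l1, of the TNFAIP8 family, had 1.16 and 1.06. All of these stood past 2-fold in both dye orders, which the rule of calling sets. Mdfi, an inhibitor of MyoD-type factors, had 1.23 and 1.06, and Ccdc167, a small coiled-coil protein, had 1.25 and 1.11. NAP017816-001, a single probe without a named gene at 41238544, had 1.28 and 1.19. Second probes of Uhrf1 (1.74), Mrpl18 (1.30), Mdfi (1.15) and Pgp (0.90) went the same way, and the value of Ccdc167 fell to 0.60 when the median of its 2 probes was taken.

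On the lower side Lonp1 and Ubxn6 serve protein quality control. Lonp1, the main protease of the mitochondrial matrix, had -1.05 and -1.42, a 2.36-fold difference with the widest spread of the set (SD 0.26). Ubxn6, a cofactor of the unfolding enzyme VCP, had -1.06 and -1.12. Both genes were bright enough to be measured in each line on either array.
Zfp598 and Gtpbp2 act on stalled ribosomes. Zfp598, the ubiquitin ligase that senses collided ribosomes, had -1.15 and -1.18. Gtpbp2, a GTPase that helps to free stalled ribosomes, had -1.44 and -1.17, and its second probe had -0.94. Both were past 2-fold on each array by their brightest probe, which is the rule by which genes were called.

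Amdhd2, Mocs1 and Cyp4f13 are enzymes. Amdhd2, which takes the acetyl group off N-acetylglucosamine-6-phosphate, had -1.29 and -1.31. Mocs1, of the first step of molybdenum cofactor synthesis, had -1.31 and -1.04. Cyp4f13, a cytochrome P450, had -1.02 and -1.05. The second probes of Amdhd2 (-0.16) and Mocs1 (-0.13) did not carry the difference, so these calls rest on 1 probe each. Chaf1a, Msh6, Kifc5b, Tubb4a, Tnfaip8l1, NAP017816-001, Lonp1, Ubxn6, Zfp598, Cyp4f13 and 2310039H08Rik, among others, had only 1 probe. Their calls could not be read through a second probe. Ypel5, a yippee-like protein, had -1.25 and -1.29 and a second probe at -0.89. 2310039H08Rik, of unnamed function, had -1.53 and -1.28, and 1110012J17Rik, without a RefSeq match, had -1.12 and -1.20 and was above background in B16F1-GFP-D on 1 of 2 arrays. Its value was -0.63 with the median of its 2 probes, short of 2-fold, and -2.88 with the series value table, so its size is not settled. With median centring instead of loess 1 member was past 2-fold on both arrays. The mean of both arrays kept its sign in each of the 23 genes under the alternatives of background, normalization and choice of probe, where measured.

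**Figure D4:**
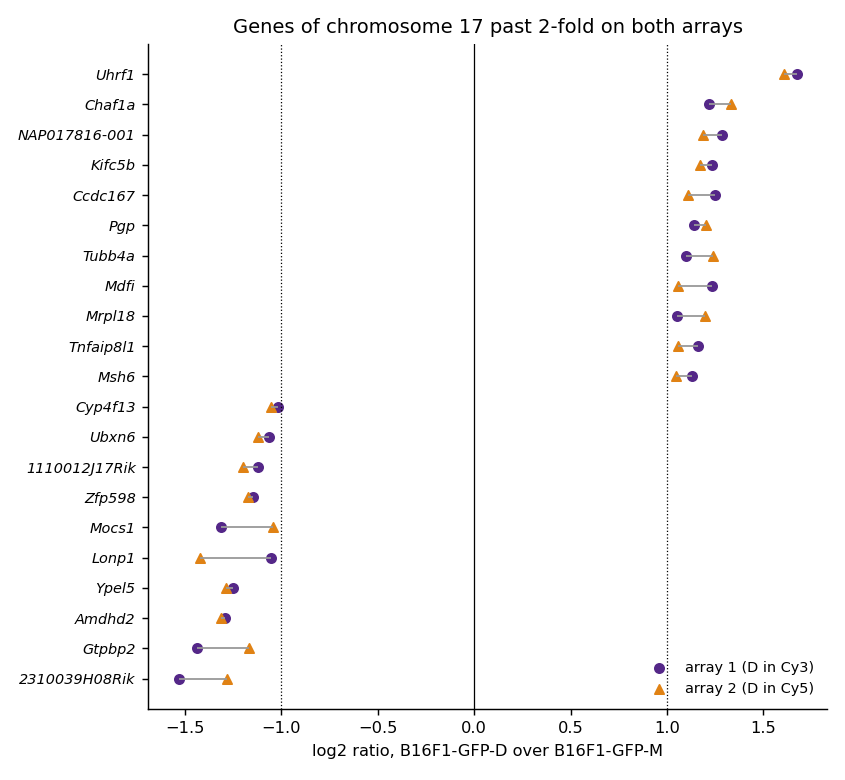
Log2 ratio (dormant over maternal line) (horizontal axis) on array 1 (circles, D in Cy3) and array 2 (triangles, D in Cy5) for 21 of the 23 members past 2-fold on both arrays, joined by a line. Dotted lines mark 2-fold in either direction. The values range from -1.53 to 1.67, and the arrays lie furthest apart for Lonp1 (-1.05 and -1.42).

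Members just inside the 2-fold rule on their weaker array were, among others, Cyp4f13 (-1.02), Mocs1 (-1.04), Msh6 (1.05), Mrpl18 (1.05) and Lonp1 (-1.05). Just outside it were, among others, Hcfc1r1 (-1.01 and -0.97), Mea1 (-0.98 and -0.98), Lemd2 (-0.94 and -1.01), Ccnf (0.96 and 1.15) and Zfp955a (-1.10 and -0.91). At the centromeric limit of the MHC the last members, Zfp955a, Zfp955b and Zfp81, had mean ratios of -1.01, -0.58 and 0.03, and the first genes left out, Zfp101, Adamts10 and Zfp414, had -0.20, 0.14 and -0.59. At the telomeric limit the last genes left out, H2-M2, Olfr124 and Olfr126, had 0.30, -0.20 and -0.13, and the first members, AF223568, BC071254 and BC131795, had 0.91, -0.52 and -0.18.

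The members of 9 lists of chromosome 17 genes were then read by function, against the median of -0.19 of all members. The list of the cell cycle and chromosome segregation went the other way: of its 16 detected genes 13 were higher in the dormant line on both arrays and 2 lower, with a median of 0.37 ± 0.09, where 29.7% of all members were higher on both arrays. Besides Uhrf1 and Chaf1a, both called, Ccnf, the cyclin F of a ubiquitin ligase, had 0.96 and 1.15. Cenpq, a kinetochore protein, had 0.67 and 0.58, and Pkmyt1, a kinase that holds back CDK1, had 0.47 and 0.72. These stayed short of 2-fold on at least 1 array. Ccnd3, the G1 cyclin D3, had 0.60 and 0.53. Sgo1, the guardian of sister chromatid cohesion, had 0.30 and 0.60. Cdkn1a, which codes for the CDK inhibitor p21 and is on the other side, had -0.82 and -0.73. It was the lowest of the 16, and E4f1 was the other gene lower on both arrays (-0.06 and -0.02).

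DNA repair split. Msh6 was higher by over 2-fold, whereas Nthl1, a glycosylase of base excision repair, had -0.78 and -0.70. Gtf2h5, a small subunit of TFIIH, had -0.47 and -0.34, and Telo2, a chaperone of the ATM-type kinases, had -0.38 and -0.49. Of 6 detected genes 2 were higher and 3 lower on both arrays, with a median of -0.19.

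Genes of the ribosome and its assembly were mostly lower, 9 of 11 on both arrays (81.8%, against 57.0% of all members) and 1 higher, with a median of -0.38 ± 0.11 and none past 2-fold. With median centring without loess the median of this list was -0.061, where that of all members was -0.074, and with the second brightest probe it was -0.18. Rps10, a protein of the small subunit, had -0.47 and -0.36, and Rpl7l1, a relative of a large subunit protein, had -0.67 and -0.54. Wdr43, a factor of small subunit assembly, had -0.66 and -0.50. The exception was Tbl3, another assembly factor, at 0.04 and 0.30, and Rps2 had unlike signs (-0.48 and 0.13). The 4 members with Rpl or Rps names had a median of -0.35, and the 64 such genes on the other autosomes -0.10.

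The 26 genes of the mitochondria list stood near the chromosome's median at -0.17, with 14 lower and 8 higher on both arrays. Lonp1 and Mrpl18 were at the ends. Clpp, the other matrix protease of the list, had -0.73 and -0.83, and Cox7a2l, a factor of respiratory supercomplexes, had -0.80 and -0.86. Decr2, which the list also holds and which codes for a peroxisomal enzyme of fatty acid breakdown, had -0.89 and -0.77. It is counted among the 14 lower genes. Higher by less were Mrpl28 (0.54 and 0.37) and the complex I genes Ndufa11 (0.41 and 0.35) and Ndufv2 (0.26 and 0.32). Mitochondrial ribosomal proteins were mixed: 7 members had a median of -0.29, and 70 genes of the other autosomes had 0.11.

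The 13 genes of protein folding and turnover were divided, with 6 lower and 6 higher on both arrays and a median of -0.12. The cytosolic chaperones Tcp1 (0.57 and 0.63) and Hsp90ab1 (0.36 and 0.37) and the ubiquitin ligase gene Cul9 (0.65 and 0.71) were higher by less than 2-fold. Usp49, a deubiquitinase, had -0.44 and -0.35. The median of this list was above 0 under 4 alternatives, among them array 1 alone and the second brightest probe, so its direction is not settled.

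Of 21 detected genes of signalling 11 were lower and 6 higher on both arrays, with a median of -0.22 and none past 2-fold on both. Prkce, protein kinase C epsilon, had -1.30 and -0.80, and Pde10a, a phosphodiesterase, had -1.11 and -0.85. Vegfa, the growth factor of blood vessels, had -0.82 and -0.32. The SD between the arrays was 0.35, 0.19 and 0.35 for these, against a pooled 0.15 over all members. Tsc2, a brake on mTOR, had -0.47 and -0.30. On the higher side Dusp1, a phosphatase of MAP kinases, had 0.48 and 0.80, and Mapk14, the kinase p38 alpha, had 0.47 and 0.75.

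The list of transcription, chromatin and splicing had the same counts, 11 lower and 6 higher of 21, a median of -0.19 and none past 2-fold. Wiz, a zinc finger partner of the G9a methyltransferase, had -0.91 and -0.93, and Tgif1, a repressor of TGF-beta targets, had -0.68 and -0.87. The general factors Gtf2f1 (-0.88 and -0.72) and Med20 (-0.81 and -0.52) were lower as well. Higher were Epas1, the hypoxia factor HIF-2 alpha (0.57 and 0.73), and Srsf3, a splicing factor (0.32 and 0.62).

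Among 11 genes of metabolism and transport 6 were lower and 4 higher, with a median of -0.24. Galm, which turns the ring form of galactose (0.62 and 0.93), and Acat2, a thiolase (0.57 and 0.97), lay on the higher side, and Cyp39a1, an oxysterol hydroxylase (-0.59 and -0.61), on the lower side. Of 15 listed genes of the t-complex and the Igf2r cluster 5 were detected, with a median of 0.10. This median turned negative with the second brightest probe. The list is a small choice of genes and does not stand for its region: all 260 members centromeric of the MHC had a median of -0.23. Igf2r, the receptor that clears IGF2, had 0.12 and 0.48, and Qk, an RNA-binding protein of splicing, had -0.73 and -0.89. Airn, Slc22a2, Slc22a3 and Plg of the same cluster were not detected.

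**Figure D5:**
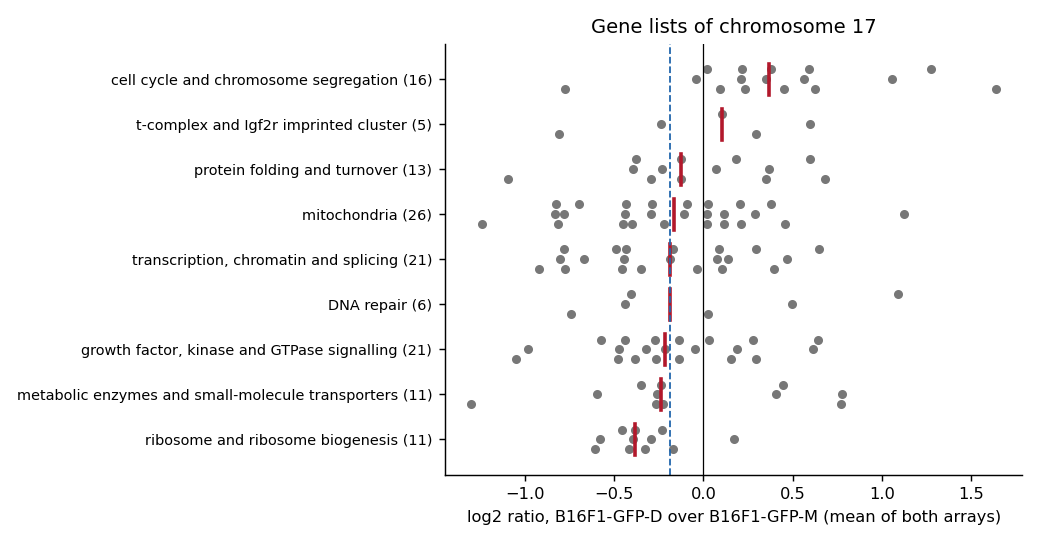
Log2 ratio (dormant over maternal line), mean of both arrays (horizontal axis), of each detected gene of the 9 lists (grey points, number of genes in parentheses), with the list's median as a red bar. The blue dashed line is the median of all 495 members, -0.19. The cell cycle list has the highest median, 0.37, and the ribosome list the lowest, -0.38.

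Genes named Zfp, most of which code for DNA-binding zinc finger proteins, were looked at after their values had been seen. Chromosome 17 held 33 detected ones outside the MHC, of which 29 were lower and 3 higher in the dormant line on both arrays, with a median of -0.48 ± 0.04. The 17 that start between 20 and 25 Mb had a median of -0.60, and the lowest window of the chromosome lies over this cluster. Zfp994 had -0.89 and -1.06, Zfp945 had -1.11 and -0.66, and Zfp946 had -0.70 and -0.82. Zfp52 (0.04 and 0.02) and Zfp53 (-0.08 and 0.20) in the same cluster stood near 0. The family was also low elsewhere: 242 detected Zfp genes of the other autosomes had a median of -0.34, and 185 of them were lower on both arrays. Probes of neighbouring family members may share target RNA. Without Zfp genes on any chromosome, the 462 remaining members had a median of -0.16, which lay 0.16 below that of the other autosomes without theirs.

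Other families were small. The 7 members named Slc, the solute carriers, had a median of -0.25 against -0.07 for 179 genes elsewhere, and 6 of them (85.7%) were lower on both arrays, against 49.7% elsewhere. The 4 members named Tmem had -0.24 against -0.04 for 137, and 2 of the 4 were lower on both arrays, against 44.5% elsewhere. These groups share the arrays and the lines with all values above.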

How the data were processed

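The deposited intensity values of spots and local backgrounds are raw readings that the authors took with Agilent Feature Extraction 10.7.3.1 (per the submitters' processing notes). The deposited log10 ratios of Cy5 over Cy3 were made by the authors' software from background-subtracted, dye-normalized signals, and the series value table holds them rounded; both were used as alternatives only. The flags for spots well above background and for outlier spots are scores of other kind from the same software. No column of other samples was present. The deposited p-values of the log ratios come from the error model of single spots and were not used.

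Control spots were removed, which left 43379 spots (41174 probes), and spots flagged as outliers were dropped, 143 from array 1 and 176 from array 2. Mean signals were background-corrected (normexp, offset 50, median local background) and loess-normalized per array (limma 3.58.1, R 4.3.3). Log2 ratios were given the direction dormant over maternal line and averaged over replicate spots. The brightest probe stood for each gene name and chromosome. Called means at least 2-fold in one direction on each array. With 1 replicate per line no test was possible, and precision is limited by there being 2 arrays. Probe positions are those of mm9 in the files. Of the 495 members 421 matched RefSeq (GRCm38.p6, used for names and promoters), which changed 46 symbols, and 2 of these (Snrpa and Btg3) have their RefSeq gene on another chromosome. The named genes are all called members, the 3 nearest detected genes on each side of both MHC limits and detected members of the 9 lists; genes just outside the 2-fold rule, Zfp genes and gene families were added after their values were seen. The members and lists were chosen with earlier results of these data known. Some genes, among them 2 of the called members, are not reported here by name. The steps were tested on simulated data. Alternatives covered background, normalization, dim probes, choice of probe, single arrays, the MHC and the size threshold. Figures were drawn in Python 3.11.15.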

Additional observations from a re-analysis of the deposited data

How the results depend on the processing

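No paired analysis was possible because no test was run with 1 replicate per line. Over the alternatives the members' median stayed below 0 and below that of the other autosomes. It was -0.26 with the scanner software's log ratios and with the series value table, -0.25 with a normexp offset of 0, -0.12 with the median over a gene's probes, -0.074 with median centring without loess and -0.024 without a filter on dim probes. With detection judged on 1 array it was -0.12 on array 1 (652 members) and -0.068 on array 2 (586 members). With the second brightest probe, chosen after seeing the data, it was -0.10. The difference to the other autosomes was -0.23 with the software's log ratios, the series value table and an offset of 0, -0.15 with median centring, -0.13 with the median of probes, -0.023 without the filter, -0.089 and -0.10 on arrays 1 and 2 alone and -0.12 with the second probe. It was -0.21 for RefSeq protein-coding members against all genes of the other autosomes, whose protein-coding genes had a median of -0.0056. Without Zfp genes on either side it was -0.16. Both settings were also chosen after seeing the data.

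The percent of members lower on both arrays (57.0%) became 66.1% on array 1 alone (55.3% on the other autosomes), 40.3% without the filter (31.6%) and 5.66% with median centring (5.48%). The count of 23 called members became 53 with the software's log ratios and with the series value table (21 higher and 32 lower). With these ratios 10.9% of the other autosomes were called. With an offset of 0 the count was 40 (18 higher and 22 lower), 8.08% of members against 8.75% of the other autosomes. It was 1 with median centring (0.202% against 0.545%), 81 at 1.5-fold (16.4% against 15.8%) and 1 at 3-fold (0.202% against 1.05%). The split by direction was not compared with the other autosomes under these alternatives. The other 31 values were taken as unchanged. Medians and their differences stayed within the spread between the arrays, and counts within 1.5 times. Percents stayed between 52.5% and 61.4%, the exact 95% binomial interval over genes, which are not replicates. Where a cause is not part of the setting itself, it was not tested. None of the 324 values of called genes under an alternative turned its sign, but many of them could not. The rule of calling fixes the sign on each array alone. Alternatives that change only the members or the detection, and Aquantile, leave these values as they are. Only the alternatives of background, within-array normalization, deposited ratios and choice of probe could have turned a sign. The medians of the lists of DNA repair, mitochondria and the t-complex turned sign with the second brightest probe, and that of protein folding under 4 alternatives. Dim probes have ratios drawn towards 0, so no change was readable for the 521 genes not detected.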
